A study of Mus musculus with 12 samples.

Results

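Immediate early genes are switched on within minutes of a stimulus without new protein synthesis, and most encode transcription factors. The 10 followed here are Fos, Fosb and Fosl1 of the FOS family, Jun and Junb of the JUN family, Egr1, Egr2 and Egr3 of the EGR zinc finger family, and the early response genes Ier2 and Ier3. They are 10 of the 24824 genes listed in the table of AML12 cells, a line of immortalized mouse hepatocytes, and were found there by symbol. They were chosen by measured values of the same libraries as well as by family. Egr1 led the rises in group C vs. B and Egr3 was near the top in group D vs. A. Which contrasts led to the choice is not recorded, and these changes were taken as the values behind it. Other members may also have been picked by their values, so counts without Egr1 or Egr3 are not free of the choice. Egr1 in C vs. B, Egr3 in D vs. A, and what is built on these changes are therefore given as descriptions with no p-value. All p-values that are given describe these libraries and are not independent support.

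Group A was grown in standard medium with no addition. Group B received CuCl2 at 300 μM with the copper ionophore elesclomol at 40 nM (Cu/ES), group D received taurocholic acid (TCA), a conjugated bile acid, at 1000 μM, and group C received all 3 agents at these doses. Exposure lasted 24 h and each group had 3 libraries of polyadenylated RNA. The sources used here do not say that libraries came from separate cultures, so the p-values measure only the spread between these samples. Of 7 hepatocyte markers in the table, 3 that define the cell type were absent or nearly so. Alb was listed at 0 in every library of groups A, C and D and averaged 0.0463 FPKM in group B, while Hnf4a and Apob averaged at most 0.0192 and 0.0116 FPKM in any group. Cebpa averaged 1.61, 0.633, 0.716 and 1.87 FPKM in groups A, B, C and D, and Apoa1 0.00863, 1.86 and 1.11 FPKM in A, B and C and 0 in D. The epithelial keratins Krt8 and Krt18, also expressed by hepatocytes, averaged 344 and 285 FPKM in group A.

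FOS proteins pair with JUN proteins to form AP-1, a dimer that binds short palindromes in promoters and enhancers, and FOS proteins need a JUN partner because they do not form stable dimers among themselves. EGR proteins bind GC-rich sites and are restrained by the corepressors NAB1 and NAB2. Growth factor and stress kinases reach these genes through serum response factor (SRF) and its partners, through CREB and ATF proteins, and for Jun through AP-1 itself. Their transcripts are short-lived, and in liver several of them are known to rise after partial hepatectomy, injury and contact with bile acids.

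Promoter windows of 300 bases, from 250 before to 50 after the start of transcription, are printed for the 4 AP-1 genes that rose with Cu/ES and had a window in the RefSeq table, since these members moved together. The windows are from build GRCm38.p6 and lie at chr12:85473640-85473939, plus strand (Fos), chr7:19309996-19310295, minus strand (Fosb), chr4:95052173-95052472, minus strand (Jun) and chr8:84978699-84978998, minus strand (Junb). Capitals mark matches to the searched motifs, on either strand.
Fos: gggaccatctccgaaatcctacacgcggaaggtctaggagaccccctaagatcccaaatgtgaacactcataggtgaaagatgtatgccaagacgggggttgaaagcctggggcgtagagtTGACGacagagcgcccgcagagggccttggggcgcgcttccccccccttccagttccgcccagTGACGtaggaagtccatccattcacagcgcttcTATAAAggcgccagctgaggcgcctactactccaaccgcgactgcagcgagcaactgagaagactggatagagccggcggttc
Fosb: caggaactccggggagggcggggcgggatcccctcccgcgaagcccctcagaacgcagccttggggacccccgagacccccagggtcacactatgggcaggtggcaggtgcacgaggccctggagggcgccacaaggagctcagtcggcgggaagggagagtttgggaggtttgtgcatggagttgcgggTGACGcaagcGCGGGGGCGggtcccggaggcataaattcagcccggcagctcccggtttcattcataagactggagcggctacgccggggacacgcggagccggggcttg
Jun: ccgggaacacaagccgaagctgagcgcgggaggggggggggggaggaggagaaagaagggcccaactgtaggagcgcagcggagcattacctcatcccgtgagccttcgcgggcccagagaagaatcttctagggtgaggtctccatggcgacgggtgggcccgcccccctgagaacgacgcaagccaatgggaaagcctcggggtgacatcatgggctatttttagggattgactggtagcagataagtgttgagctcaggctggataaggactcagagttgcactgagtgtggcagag
Junb: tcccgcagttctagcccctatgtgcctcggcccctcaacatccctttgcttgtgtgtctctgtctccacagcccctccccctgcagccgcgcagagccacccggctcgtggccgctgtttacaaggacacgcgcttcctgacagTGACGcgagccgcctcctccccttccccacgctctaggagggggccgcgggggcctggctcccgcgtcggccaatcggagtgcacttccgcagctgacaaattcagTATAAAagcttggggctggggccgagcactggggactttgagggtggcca

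The motifs searched were the cAMP response element TGACGTCA and its half-site TGACG, the AP-1 site TGANTCA, an EGR site GCGNGGGCG, the TATA box TATAAA, a heat shock element and the CArG box bound by SRF. The half-site is contained in the full cAMP response element. Of 32851 windows of this length in the table, 20.8% held the half-site, 1.79% the full element, 7.81% the AP-1 site, 5.55% the EGR site, 13.6% the TATA box, 0.603% the heat shock element GAANNTTCNNGAA and 1.63% the CArG box. Windows were found for 6 of the 10 members, the other two being Egr2 and Ier3, and not for Egr1, Egr3, Fosl1 and Ier2. The half-site was present for 4 of these 6, namely Fos, Fosb, Junb and Egr2. Counting from 1 at the 5′ end of the window, Fos held it at bases 122 to 126 and 185 to 189, Fosb at 191 to 195 and Junb at 145 to 149. The EGR site was found in Fosb alone, at bases 201 to 209, and the CArG box in windows of Egr2. The TATA box was found in Fos at 218 to 223 and in Junb at 251 to 256. As 250 bases of the window precede the annotated start, the Junb match lies at and after that start. Sites farther upstream than the windows reach, CArG boxes included, were not searched. None of the searched motifs was found in the windows of Jun and Ier3, and no member's window held the AP-1 site, the full element or the heat shock element. Only exact matches to these patterns were searched, so near matches, such as TGACATCA in the Jun window, were neither marked nor counted. The GC content of the printed windows was 58.7% for Fos, 68.3% for Fosb, 60.0% for Jun and 65.3% for Junb, against a median of 52.7% over all windows. A match describes these letters and does not show binding.

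Levels are in FPKM, in which reads are divided by gene length and library size, so that genes can be set side by side. The spacing of the values gave back whole reads and library totals, which ran from 38298857 to 39782142 reads in groups A and D and from 29115011 to 34912748 in groups B and C. The members' own counts ran from 187 reads for Fos in a library of group A to 50452 for Junb in one of group C. Changes are differences of log2(FPKM + 1), which understates those of low genes such as Egr2. A change was called at an adjusted p under 0.05 (limma, Benjamini-Hochberg over 10615 genes whose mean FPKM was 1 or more, all 10 members among them) and an absolute log2 fold change above 1. Over these genes the median log2 fold change was -1.10 in group B vs. A and -1.13 in group C vs. D, but close to 0 for both effects of TCA (-0.03 for C vs. B, -0.01 for D vs. A). Each member's change with Cu/ES is therefore also set against that median. Fewer cells of a kind and less RNA per cell cannot be told apart in bulk libraries. Markers of other cell types moved with the groups. The 4 endothelial markers summed to between 0.922 and 1.16 FPKM in group A, 6.80 and 10.5 in B, 16.8 and 19.8 in C, and 0.865 and 1.25 in D, with Pecam1 making up most of the sum in B and C, and 2 of the 4 stayed under 1 FPKM in every library. The 6 macrophage markers summed to between 135 and 146 FPKM in group A, 48.4 and 52.8 in B, 43.0 and 55.4 in C, and 43.3 and 51.3 in D, nearly all from Cd68 and Gpnmb, while the other 4, Ptprc, Adgre1, Csf1r and Lyz2, stayed under 1 FPKM. The 5 cholangiocyte markers summed to between 735 and 1404 FPKM over the 12 libraries and the 5 stellate and fibroblast markers to between 1.24 and 206 FPKM, lowest in groups B and C. The 10 most abundant genes took 7.83% to 8.49% of the summed FPKM in groups A and D and 14.9% to 15.8% in groups B and C. The part of these markers and of this shift in the results was not tested.

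In group B vs. A all 5 AP-1 members were called higher on FPKM. No EGR or IER member was, and no member was called lower. The counts were 5 of 10 members higher and 0 lower, beside 10.1% of all genes tested called higher and 53.0% called lower. The median log2 fold change of the members was 0.67. In 6 of 10 members the libraries of groups A and B did not overlap, 5 of them higher in B and 1, Ier3, lower, beside 20.5% and 72.4% of all genes tested. The calls depended on the scaling. With median-ratio scaling 7 members were called higher, with Egr1 and Ier2 added, beside 2856 of 10615 genes higher and 2600 lower. With quantile normalization 6 were higher, with Egr3 added, and 1 lower, beside 2198 and 2353 genes. TPM scaling called 4 higher and 1 lower, beside 775 and 6494 genes. An exact permutation test of 3 libraries against 3 cannot go below p = 0.1, so for single genes only the fit across genes is quoted.

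**Figure D1:**
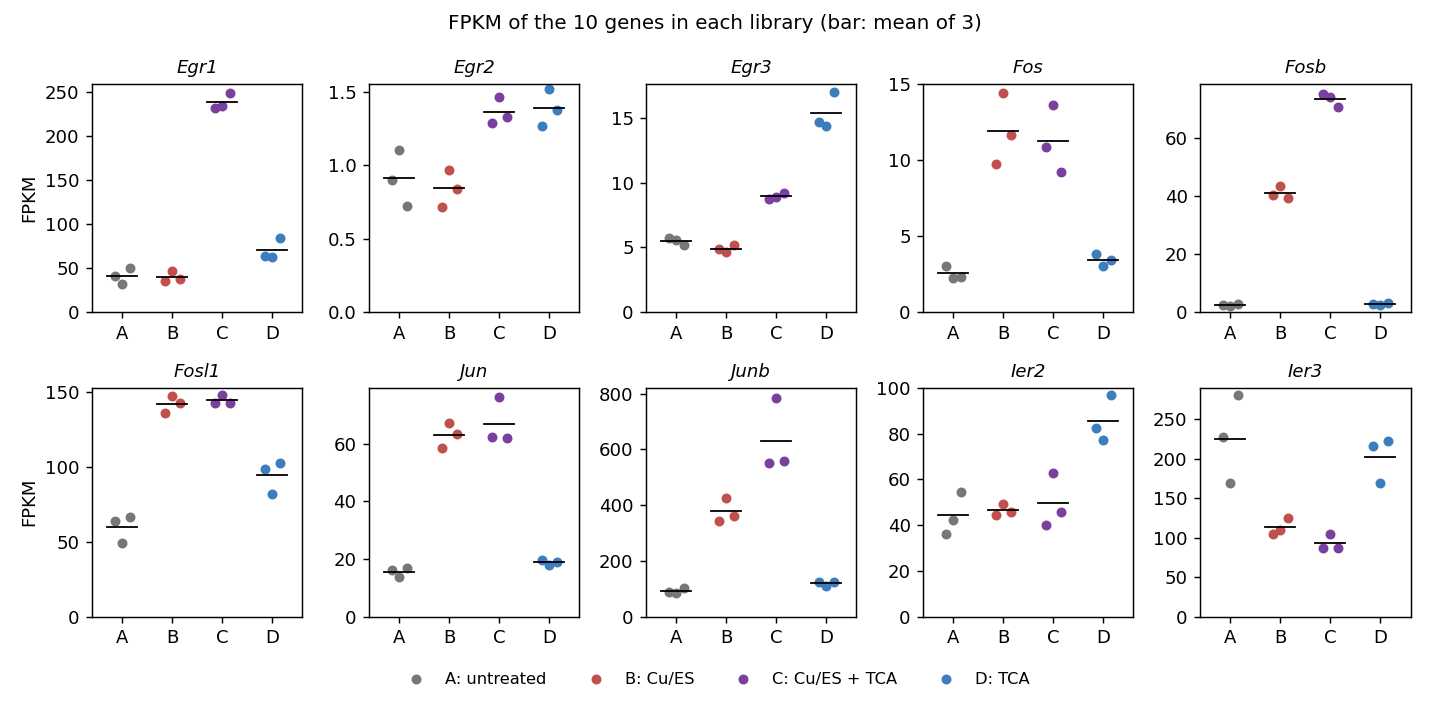
FPKM of each of the 10 genes (vertical axes, linear from 0) in the 12 libraries by group, with a bar at the mean of 3. Fos, Fosb, Fosl1, Jun and Junb are high in the 6 libraries with Cu/ES, Egr1 stands highest in group C, and Egr3 and Ier2 in group D.

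Fosb, a FOS protein with a transactivating full-length form and a truncated splice form, had the largest change of the 10 with Cu/ES. Its level was 2.48, 2.12 and 2.87 FPKM in group A and 40.3, 43.4 and 39.3 FPKM in group B. Every library with Cu/ES was far above every library without it. The mean was 16.5 times higher, and the log2 fold change of 3.59 ± 0.09 (SE, adjusted p = 2.12e-13, limma) ranked 61 from the top of 10615.

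Fos, the prototype partner of JUN and the member best known for its brief induction, was low throughout. It stood at 3.08, 2.28 and 2.35 FPKM in group A and at 9.75, 14.4 and 11.7 FPKM in group B. The groups did not overlap, with a rise of 1.85 ± 0.15 on the log2 scale (adjusted p = 1.89e-08). Fosl1, or FRA-1, lacks a strong transactivation domain and tends to persist longer than Fos. It was already at 64.0, 49.2 and 66.8 FPKM in untreated cells and reached 136, 147 and 143 FPKM with Cu/ES. Its rise, 1.24 ± 0.11, was the smallest of the 5 but still separated all libraries (adjusted p = 3.40e-08), and under TPM scaling it was 0.87, short of the fold threshold. Fosl1 overlaps Ccdc85b in the annotation, and whether reads were counted by strand is not given in the sources used here. Over the same comparison Ccdc85b fell by 2.24 on the log2 scale.

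Jun, the JUN protein activated through its N-terminal kinase, read 16.1, 13.7 and 16.9 FPKM in group A and 58.6, 67.2 and 63.3 FPKM in group B. The rise of 1.95 ± 0.10 (adjusted p = 6.72e-11) amounted to 4.04 times the untreated mean. Junb, a weaker activator that can oppose Jun at some promoters, was the most abundant JUN member. It read 89.5, 84.3 and 103 FPKM in untreated cells and 344, 427 and 360.1 FPKM with Cu/ES. No library of group A came near those of group B, and the rise of 2.02 ± 0.13 (adjusted p = 1.23e-09) was close in size to that of Jun. Set against the median of all genes, the 5 AP-1 members stood 2.34 (Fosl1) to 4.69 (Fosb) higher on the log2 scale. All 5 were higher in group B under each scaling tried.

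**Figure D2:**
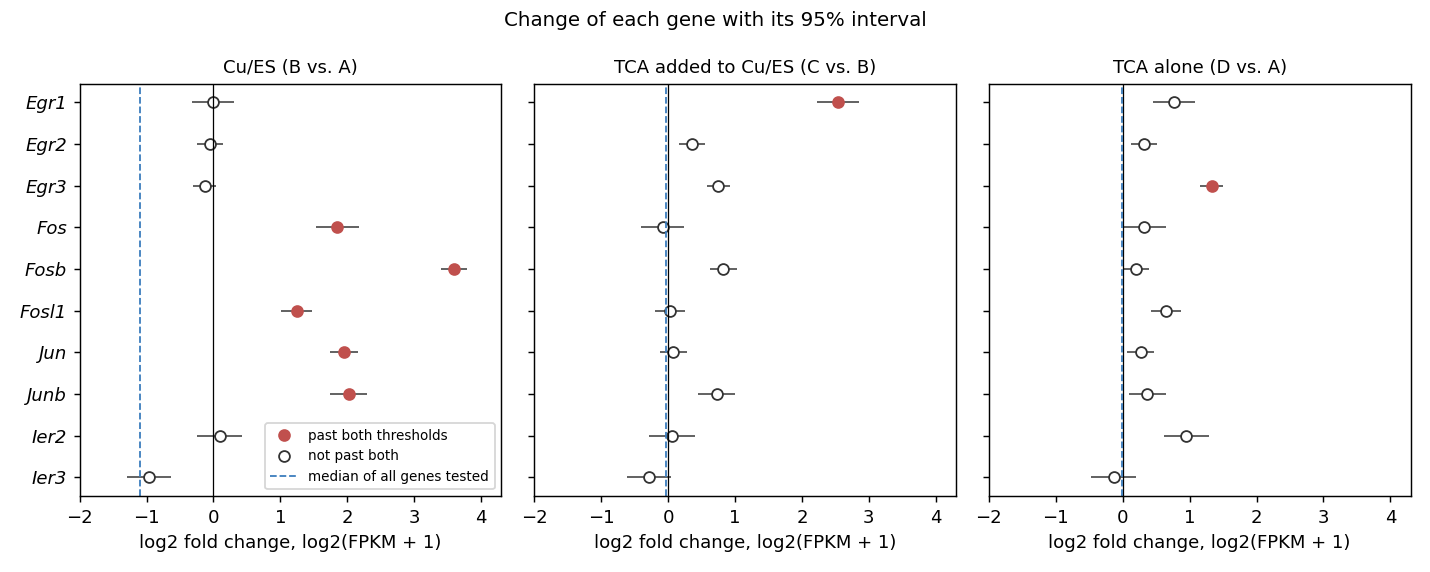
Log2 fold change of each gene on the log2(FPKM + 1) scale (horizontal axes) with its 95% interval, in panels for Cu/ES (B vs. A), TCA added to Cu/ES (C vs. B) and TCA alone (D vs. A). Filled points passed both thresholds and the dashed line is the median of all 10615 genes tested. With Cu/ES the 5 FOS and JUN genes lie from 1.24 to 3.59 and the dashed line is at -1.10.

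No EGR member was called with Cu/ES. Egr1, an activator and repressor of growth and injury genes, read 40.7, 32.3 and 49.8 FPKM in group A and 35.8, 47.0 and 38.1 FPKM in group B. The libraries overlapped, and the difference of -0.01 had a 95% interval of -0.33 to 0.30 (adjusted p = 0.944). Egr2, known from hindbrain and myelin development, was near the filter, at 0.903, 1.11 and 0.726 FPKM and 0.719, 0.970 and 0.841 FPKM, a difference of -0.05 (95% interval -0.25 to 0.15, adjusted p = 0.605). Egr3, itself a target of Egr1 in several cell types, read 5.74, 5.54 and 5.20 FPKM in group A and 4.89, 4.65 and 5.22 FPKM in group B. These overlapped narrowly, with a difference of -0.13 (95% interval -0.30 to 0.04, adjusted p = 0.122). The direction of all 3 depends on the scaling: with median-ratio scaling, which sets the median change of all genes to 0.01, Egr1 stood at 1.30, past both thresholds, Egr2 at 0.57 and Egr3 at 0.98, while TPM scaling gave -0.37, -0.22 and -0.44. With quantile normalization Egr3, at 1.20, was past both thresholds. Relative to the median gene they were 0.967 to 1.09 higher on the log2 scale.

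The IER members also lacked a called change. Ier2, a nuclear protein of the early response, read 36.1, 42.2 and 54.3 FPKM in group A and 44.5, 49.2 and 45.9 FPKM in group B. The group B libraries lay inside the range of group A, and the difference was 0.09 (95% interval -0.25 to 0.43, adjusted p = 0.587), against 1.40, past both thresholds, with median-ratio and -0.27 with TPM scaling. Ier3, or IEX-1, is a survival and stress gene and not a DNA-binding factor. It was the most abundant member in untreated cells, at 227, 169 and 279.9 FPKM, and read 105, 109 and 125 FPKM with Cu/ES. Every library of group B was below every library of group A. The difference of -0.96 ± 0.16 passed the adjusted p (3.66e-05, limma) but not the fold threshold. It was past both without replicate 2 of group A (-1.15) and without replicate 3 of group B (-1.04), and turned to 0.37 with median-ratio scaling, and in FPKM it differed from the median gene by only 0.138.

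The comparison of group C vs. D measures Cu/ES again, in cells that all received TCA and in libraries that group B vs. A does not use. There 5 members were called higher and 1 lower, beside 11.2% and 53.3% of all genes. The 5 include Egr1, whose values in these group C libraries were taken to have picked it, so its call is no support. Fosb was 4.22 ± 0.09 higher on the log2 scale (adjusted p = 5.61e-14), Junb 2.38 ± 0.13 (1.81e-10), Jun 1.76 ± 0.10 (1.95e-10) and Fos 1.45 ± 0.15 (2.98e-07). Fosl1, at 0.62 ± 0.11 (6.20e-05), passed the adjusted p alone. The remaining member called higher was Egr1, with 1.76, given as a description. Ier3 was the member called lower, at -1.11 ± 0.16 (8.29e-06), with 0.27 under median-ratio scaling. Egr3 and Ier2, at -0.72 and -0.80, were below their levels with TCA alone, though above them (0.56 and 0.57) under median-ratio scaling. Egr2 differed by -0.02 (95% interval -0.21 to 0.18), and by 0.79 under median-ratio scaling.

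The makeup of the AP-1 members also moved with Cu/ES. Fosl1 accounted for 92.2% ± 0.499 of the summed FPKM of Fos, Fosb and Fosl1 in group A (SD, n = 3), and for 72.8% ± 0.967, 63.1% ± 0.872 and 93.6% ± 0.139 in groups B, C and D. Over the same groups Fosb made up 3.84% ± 0.234, 21.1% ± 0.679, 32.0% ± 0.691 and 2.98% ± 0.109. Fos never exceeded a mean share of 6.11%, its value in group B. Fosl1 thus stayed the main FOS transcript in every group while Fosb gained share wherever Cu/ES was present, and the libraries with and without Cu/ES did not overlap in either share. The summed FPKM of Fos, Fosb and Fosl1 was 65.0 ± 10.02 in group A, 195 ± 9.57 in B, 229 ± 6.62 in C and 101 ± 11.4 in D. Of the JUN pair, Junb held 85.5% ± 0.712, 85.6% ± 0.693, 90.3% ± 0.726 and 86.2% ± 0.402 in groups A, B, C and D. The share of Junb was above that of all other groups in every library of group C and nearly the same in A, B and D. Jund, the constitutive JUN gene outside the 10, averaged 32.1, 80.0, 170.1 and 38.6 FPKM.

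**Figure D3:**
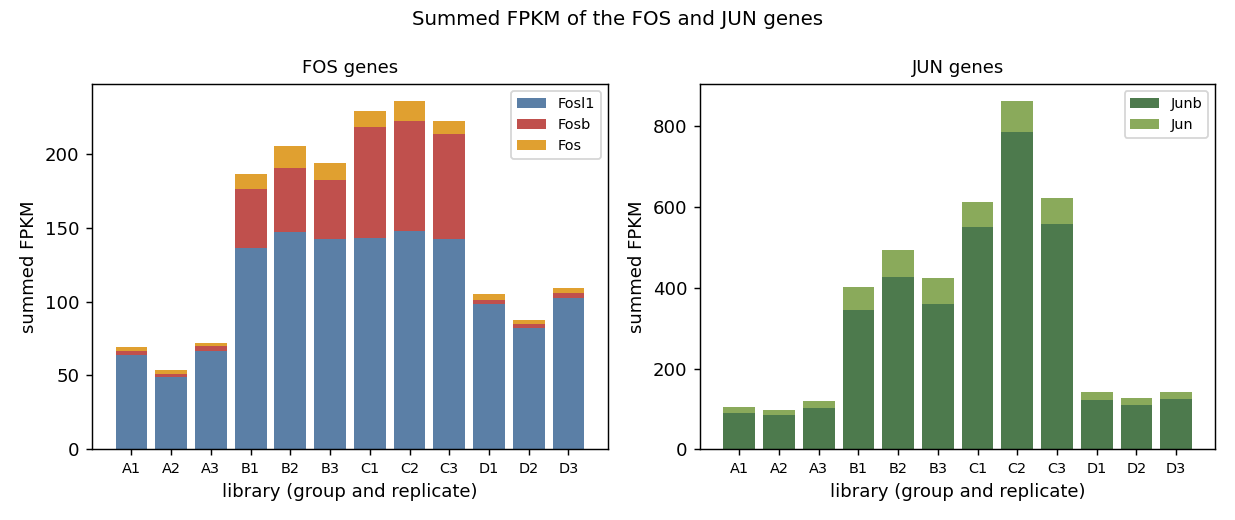
Summed FPKM (vertical axes, linear from 0) of Fos, Fosb and Fosl1 and of Jun and Junb in each of the 12 libraries, stacked by gene. Fosl2 and Jund are not included. Fosl1 is the largest FOS part everywhere, the Fosb part appears in the 6 libraries with Cu/ES, and Junb is the larger JUN part throughout.

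TCA added to Cu/ES, group C vs. B, was followed by higher levels of the EGR members, Fosb and Junb. Egr1 was taken as picked by this contrast and is left out of these counts. Of the other 9 members 0 were called higher or lower, beside 1.13% and 1.16% of all genes. At the adjusted p alone 4 of the 9 were higher, beside 20.4%, and in 4 of the 9 every library of group C was above every library of group B, beside 22.0%. Egr1 read 232, 233 and 248 FPKM in group C against 35.8, 47.0 and 38.1 in group B. All 3 libraries of group C lay in a narrow band far above those of group B, 5.90 times as high on average. Its log2 fold change of 2.54 ± 0.15 (SE) ranked 1 of 10615, and was taken as the value by which Egr1 was picked. Egr3 was at 8.75, 8.90 and 9.20 FPKM, all above group B, with a difference of 0.75 ± 0.08 (adjusted p = 9.27e-06). Egr2 was at 1.29, 1.46 and 1.33 FPKM, likewise all above group B, with 0.36 ± 0.09 (adjusted p = 0.00598).

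Among the AP-1 members, Fosb went from a mean of 41.0 ± 2.14 FPKM (SD, n = 3) to 75.0, 74.2 and 70.6 FPKM in the libraries of group C. The groups were apart, and the difference of 0.82 ± 0.09 passed the adjusted p (1.50e-05, limma) but not the fold threshold. Junb read 550.1, 785 and 559 FPKM, replicate 2 standing well above the other two, with a difference of 0.73 ± 0.13 (adjusted p = 0.000458) that was 0.56 without that library. Fos, Fosl1 and Jun did not pass. Fos read 10.9, 13.7 and 9.26 FPKM with a difference of -0.08 (95% interval -0.40 to 0.24), Fosl1 143, 148 and 142 FPKM with 0.02 (-0.20 to 0.25), and Jun 62.4, 76.3 and 62.1 FPKM with 0.08 (-0.12 to 0.29). For each of these 3 the libraries of groups B and C overlapped. Ier2, at 39.9, 62.7 and 45.6 FPKM, overlapped group B widely with a difference of 0.06 (-0.28 to 0.40). Ier3, at 87.3, 104 and 86.7 FPKM, lay just below group B in every library, with -0.28 (-0.62 to 0.05, adjusted p = 0.157).

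TCA alone, group D vs. A, was followed by higher levels of Egr3, Ier2, Egr1, Fosl1 and Egr2. Egr3 was taken as picked by this contrast and is left out of these counts. Ier2 and Egr1, which ranked 9 and 36 of 10615, stay in them, so the counts are not free of the choice. Of the 9 members 0 were called higher or lower, beside 0.0659% and 0.151% of all genes. Past the adjusted p alone were 4 of the 9, all higher, beside 10.5% of all genes, and 6 of the 9 had every library of group D above every library of group A, beside 20.7%. Egr3 read 14.7, 14.4 and 17.0 FPKM against 5.74, 5.54 and 5.20 in group A. That is 2.80 times the untreated mean. The log2 fold change of Egr3, 1.33 ± 0.08 (SE), was number 2 from the top among 10615 genes, and was taken as the value that picked it. Ier2 followed, at 82.4, 77.3 and 97.0 FPKM against 36.1, 42.2 and 54.3 in group A. The groups were apart, and the difference of 0.95 ± 0.16 (adjusted p = 0.00125) was number 9 from the top but just under the fold threshold. It exceeded that threshold without replicate 3 of group A (1.11), without replicate 2 of group D (1.02) and with quantile normalization (1.09).

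Egr1 with TCA alone read 64.0, 62.4 and 84.1 FPKM, above all libraries of group A, with a difference of 0.77 ± 0.15 (adjusted p = 0.00279). Fosl1 read 98.2, 82.0 and 102 FPKM, also above all of group A, with 0.65 ± 0.11 (adjusted p = 0.00111). Egr2 read 1.27, 1.52 and 1.38 FPKM, with 0.32 ± 0.09 (adjusted p = 0.0226), a p that went above 0.05 without replicate 1 or 3 of group A or replicate 2 or 3 of group D, at most to 0.0943, and also with median-ratio scaling (0.0842), quantile normalization (0.0762), no filter (0.0541) and a pseudocount of 0.1 (0.0524). Both Junb, at 123, 109 and 124 FPKM, and Jun, at 19.7, 18.0 and 19.1 FPKM, lay above every untreated library. Their differences, 0.37 (adjusted p = 0.0570) and 0.27 (adjusted p = 0.0586), just missed the adjusted p and passed it without replicate 2 of group C (0.00946 and 0.0219), with TPM scaling (0.0292 and 0.0424) and with quantile normalization (0.0223 and 0.0231). Junb also passed with only the groups compared (0.0258) and without replicate 1 of group C (0.0492). The differences of Fos, 0.32 (adjusted p = 0.138), Fosb, 0.20 (0.142), and Ier3, -0.13 (0.585), did not pass, with group D at 3.84, 3.07 and 3.45 FPKM for Fos, 3.04, 2.58 and 3.38 for Fosb and 216, 169 and 223 for Ier3. With TCA alone every library of Fos and Fosb stayed below every library with Cu/ES.

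Groups C vs. B and D vs. A share no library, so whether TCA acted to the same extent with and without Cu/ES was tested by the interaction term. Without Egr1 and Egr3, whose terms hold the values taken to have picked them, 0 of 8 members were called, beside 1.75% of all genes higher and 1.73% lower. At the adjusted p alone 1 of the 8 had a larger effect of TCA with Cu/ES and 2 a smaller one, beside 17.7% and 19.8%. Egr1 had the larger effect with Cu/ES, 2.54 against 0.77, a difference of 1.77 ± 0.21 (SE). Fosb also had the larger effect with Cu/ES, 0.82 against 0.20 (difference 0.63 ± 0.13, adjusted p = 0.00245, limma). Egr3 went the other way, 0.75 against 1.33, a difference of -0.58 ± 0.11. For Ier2 the effect was 0.06 with and 0.95 without Cu/ES (difference -0.89 ± 0.22, adjusted p = 0.00721), and for Fosl1 0.02 and 0.65 (difference -0.62 ± 0.15, adjusted p = 0.00535). The opposite signs for Egr1 and Egr3 follow in part from the contrasts taken to have picked them and are no finding. The 2 effects of TCA on Egr2 differed by 0.03 (95% interval -0.24 to 0.31). The interaction did not pass for Junb (0.36, -0.03 to 0.75), Fos (-0.40, -0.85 to 0.05), Jun (-0.19, -0.48 to 0.10) or Ier3 (-0.15, -0.62 to 0.32), although Junb passed the adjusted p with TPM scaling (0.0344) and Fos without replicate 2 of group C (0.0403).

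**Figure D4:**
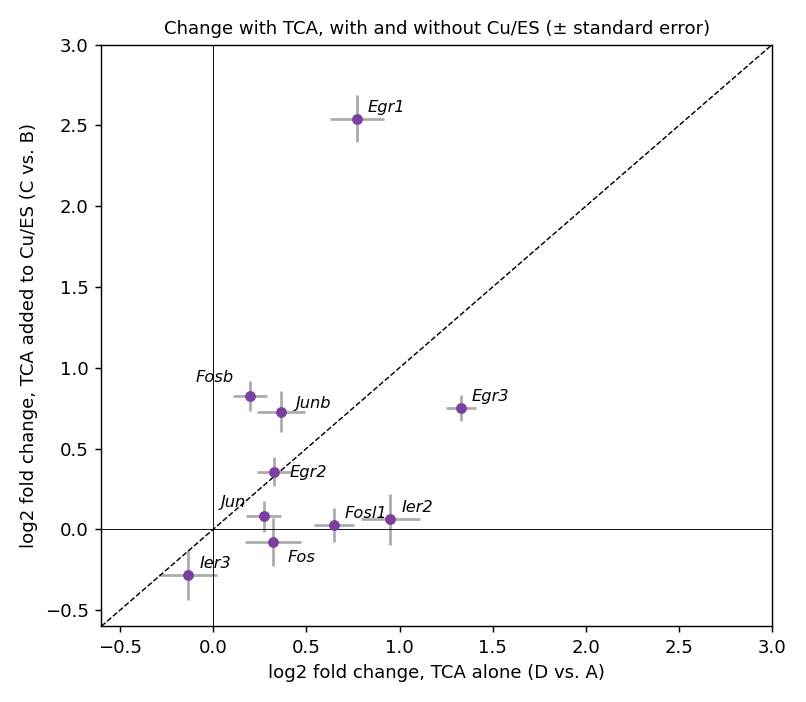
Log2 fold change with TCA in the presence of Cu/ES (vertical axis, group C vs. B) against that with TCA alone (horizontal axis, group D vs. A) for each of the 10 genes, with standard errors. On the dashed line both are equal. Egr1 lies above it at 2.54 against 0.77, and Egr3 below it at 0.75 against 1.33.

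The order of the 4 groups in FPKM differed between members. Fosb and Junb were highest in group C, then B, D and A, with only D and A overlapping for Fosb and no neighbours overlapping for Junb. Jun and Fosl1 had the same order with groups C and B overlapping, and Fos ran B, C, D and A with overlaps between B and C and between D and A. Egr1 ran C, D, A and B, whereas Egr2 and Egr3 ran D, C, A and B. A and B overlapped for all 3 EGR genes, and D and C for Egr2. Ier2 was highest in group D, its other groups overlapping, and Ier3 ran A, D, B and C with A and D overlapping. The ratio of the highest to the lowest group mean ran from 1.64 for Egr2 to 29.4 for Fosb. The orders of the EGR and IER genes depend on the scaling. With median-ratio scaling B stood above A for Egr1 (1.30), Egr2 (0.57), Egr3 (0.98) and Ier3 (0.37) on the log2 scale. There C stood above D for Egr2 (0.79), Egr3 (0.56), Ier2 (0.57) and Ier3 (0.27).

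Of 34 other immediate early genes tested, 22 rose and 2 fell in group B vs. A, beside 10.1% and 53.0% of all genes. This list, like those that follow, was compiled with earlier results of these libraries known. Their median log2 fold change was 1.52 beside -1.10 over all genes, and with median-ratio scaling 29 were called higher and 0 lower. The largest rises were of Ccn2 and Ccn1, secreted matricellular proteins, and of Atf3, a stress-induced repressor that can pair with JUN proteins. Ccn2 went from 0.840 ± 0.477 to 278 ± 89.1 FPKM (SD, n = 3), a log2 fold change of 7.23 (adjusted p = 5.72e-12). Ccn1 went from 21.3 ± 1.91 to 1787 ± 308 FPKM, a change of 6.31 (adjusted p = 6.88e-14). Atf3 went from 8.06 ± 1.07 to 460.1 ± 27.9 FPKM, a change of 5.67 (adjusted p = 8.76e-15). The 2 lower ones were Myc, the growth regulator, which fell by 1.53 on the log2 scale, and Srf, the factor that binds the CArG box, which fell by 1.10. Neither was called with median-ratio scaling, where Myc stood at -0.44 and Srf at 0.01. In group C vs. B, 2 of the 34 rose, Arc (1.41, adjusted p = 9.68e-06), a synaptic gene in neurons, and Jund (1.06, adjusted p = 1.89e-05). In group D vs. A 1 rose, Plaur (1.03, adjusted p = 3.28e-06), the urokinase receptor. None fell in either comparison. Of all genes 1.13% were called higher and 1.16% lower in C vs. B, and 0.0659% and 0.151% in D vs. A.

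**Figure D5:**
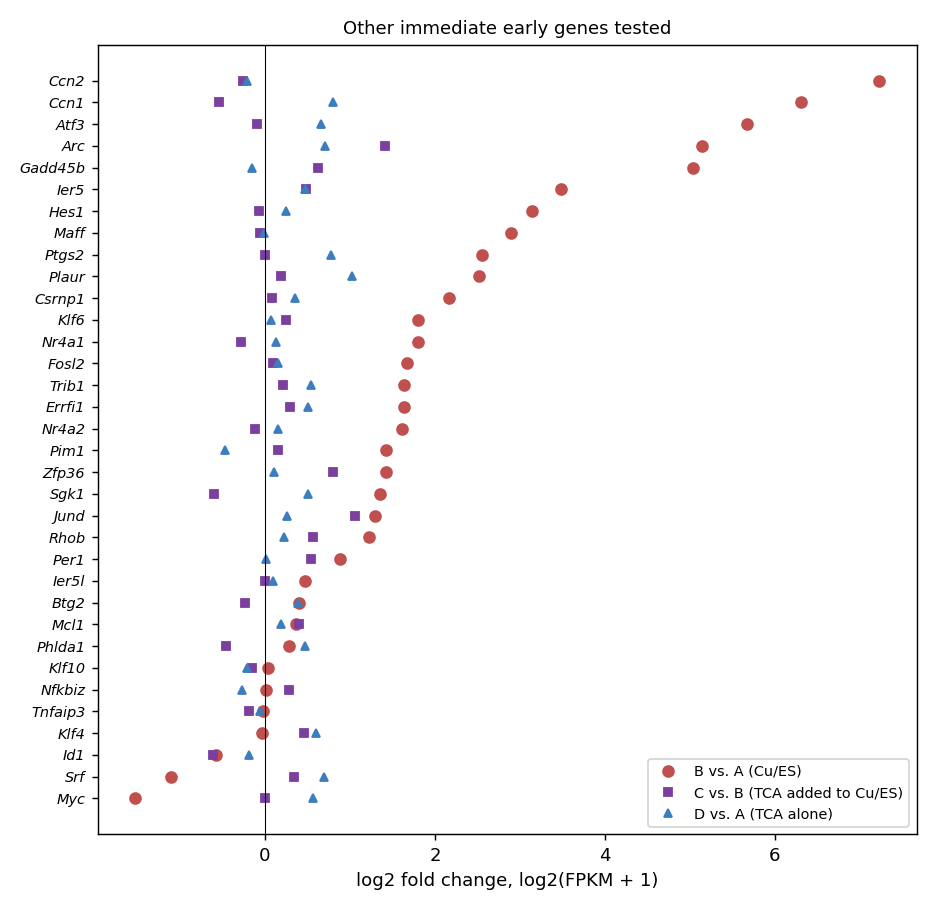
Log2 fold change on the log2(FPKM + 1) scale (horizontal axis) of the 34 other immediate early genes tested, in group B vs. A (circles), C vs. B (squares) and D vs. A (triangles). In B vs. A 22 were called higher, up to 7.23 for Ccn2, and 2 lower, while the changes with TCA lie between -0.61 and 1.41.

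Other dimer partners of AP-1 went both ways. Of 10 tested, 5 rose with Cu/ES, led by Atf3, Mafk (4.29) and Maff (2.90), and 2 fell, Atf7 (-2.26) and Batf3 (-1.35), against 6 and 1 with median-ratio scaling. For this and the next lists, 10.1% of all genes tested were called higher and 53.0% lower in B vs. A. The shares were 1.13% and 1.16% in C vs. B, and 0.0659% and 0.151% in D vs. A. Jund, at 1.06, was the 1 partner called in C vs. B and none was called in D vs. A. Both EGR corepressors fell in FPKM, though with median-ratio scaling Nab2 stood at 0.24 and only Nab1, at -1.40, was called lower. Nab1 went from 21.2 ± 2.73 to 2.81 ± 0.731 FPKM (-2.55, adjusted p = 6.09e-11) and Nab2 from 34.1 ± 1.02 to 16.1 ± 2.38 FPKM (-1.04, adjusted p = 4.00e-08). Neither was called in C vs. B, where Nab1 differed by -0.53 and Nab2 by -0.06. Of the 28 tested genes of kinase signalling to SRF, CREB and JUN, 0 rose and 19 fell in B vs. A, with a median of -1.53 beside -1.10 for all genes, and with median-ratio scaling 2 rose and 8 fell. The largest falls were of the kinase Map2k4 (-3.65), which acts on the JUN kinases, the SRF partner Elk3 (-3.40) and the ribosomal S6 kinase Rps6ka1 (-3.03). None of the 28 was called with TCA in either setting, near the small shares of all genes.

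Of 9 tested genes that feed back on ERK, the kinase upstream of many of these factors, 3 phosphatases rose with Cu/ES, Dusp1 (3.13), Dusp2 (2.47) and Dusp5 (2.46), and 2 inhibitors fell, Spred1 (-2.75) and Spred2 (-1.29). These counts stand beside 10.1% of all genes called higher and 53.0% lower. With median-ratio scaling 3 of the 9 were higher and 1 lower. Among 13 factors that bind or degrade transcripts with AU-rich elements, as many early transcripts carry, 1 rose and 6 fell, close to the 10.1% and 53.0% of all genes, with a median of -0.83 beside -1.10, whereas with median-ratio scaling 6 rose and 3 fell. The riser was Zfp36 (1.42), itself an immediate early gene, and the largest falls were of Parn (-2.95), Auh (-2.61) and Xrn1 (-2.23). No gene of either list was called in C vs. B or in D vs. A. This is near the shares of all genes, 1.13% higher and 1.16% lower in C vs. B and 0.0659% and 0.151% in D vs. A.

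Genes known as AP-1 targets were split with Cu/ES, 5 of 16 higher and 5 lower, beside 10.1% and 53.0% of all genes. Their median was 0.40 beside -1.10 for all genes, and 10 were higher and 3 lower with median-ratio scaling. Hmox1, the haem oxygenase also driven by oxidative stress, rose from 28.6 ± 6.50 to 2693 ± 227 FPKM (6.53), and the matrix metalloproteinases Mmp10 (4.67) and Mmp13 (3.96) followed. Ccnd1, or cyclin D1, fell from 78.9 ± 17.8 to 2.51 ± 0.279 FPKM (-4.49), with Plau (-3.12) and Mmp9 (-2.30). In C vs. B only Timp1, a protease inhibitor, was called, lower at -1.07 (adjusted p = 4.61e-07), and in D vs. A only Plaur, higher. The shares of all genes called higher and lower were 1.13% and 1.16% in C vs. B, and 0.0659% and 0.151% in D vs. A. Of 9 tested genes known as EGR targets, 1 rose with Cu/ES, Ptgs2 (2.55), and 5 fell, among them Tgfb1 (-2.73), close to the 10.1% and 53.0% of all genes, against 2 higher and 2 lower with median-ratio scaling. In C vs. B 0 of these 9 were called higher, beside 1.13% of all genes, and 1 lower, beside 1.16%, Fn1 or fibronectin (-1.18, adjusted p = 7.67e-05), and in D vs. A none was called.

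The genes whose levels followed Egr1, Fos and Jun most closely were ranked by Pearson r of log2(FPKM + 1) over the 12 libraries, which share the 4 groups and so mostly restate group differences. For Egr1 they were Por (r = 0.974), Rbm38 (0.972) and Mrm2 (0.960). Mrm2 averaged 2.55, 2.33, 7.17 and 3.27 FPKM in groups A, B, C and D, high in group C as Egr1 was. For Fos they were Nasp (0.993), Fam107b (0.990) and Klhdc4 (0.990). For Jun they included Ddx39a (0.999) and Cript (0.997), and Ddx39a averaged 41.3, 206, 212 and 52.9 FPKM in groups A, B, C and D.

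The members have few exons. In the longest protein-coding transcript of GENCODE M21 they had 1 exon (Jun, Junb, Ier2), 2 (Egr1, Egr2, Egr3, Ier3) or 4 (Fos, Fosb, Fosl1), against a median of 9 over the 9853 tested genes with a match. Genes with at most 4 exons were 19.0% of these 9853. Of them 12.1% were called higher and 52.9% lower in group B vs. A, beside 8.76% and 54.5% of all 9853. Of 17 genes tested that neighbour or overlap a member on the chromosome, 1 was called higher (Etf1, next to Egr1) and 13 lower in B vs. A. Over all genes tested 10.1% were called higher and 53.0% lower. The median change of the 17 was -1.67 on the log2 scale, beside -1.10 over all genes tested. None of the 17 was called with TCA. Of all genes, 1.13% were higher and 1.16% lower in C vs. B, and 0.0659% and 0.151% in D vs. A.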

How the data were processed

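Polyadenylated RNA of 12 AML12 libraries, 3 in each of 4 groups taken from the sample labels, was sequenced by the authors. The submitters' processing notes name fastp, HISAT2, HTSeq and the build GRCm39, and their versions and settings are not given in the sources used here. The authors deposited FPKM values, 1 column per library, for 24824 genes. From these, log2(FPKM + 1) of the 10615 genes averaging 1 FPKM or more was fitted in 1 limma 3.58.1 model (R 4.3.3) with a mean-variance trend and 8 residual degrees of freedom. Two-sided p-values were adjusted over all genes tested (Benjamini-Hochberg). The authors' count-based test was not run. The deposited values are FPKM, and reads recovered from them were used only in limma-voom, as an alternative. Whole reads were recovered for 22212 of 22212 genes above 0 in at least 2 libraries (tolerance 0.02 reads). The fit was tested on simulated data for group B vs. A with 10851 genes. Of 186 genes changed there by 2 on the log2 scale, 95.7% were recovered with 0 false calls. In the measured libraries 1070 genes were called higher and 5622 lower in group B vs. A. The fit was not tested on data with a shift of that breadth. All 10 members are named, up to 3 rises and 3 falls past both thresholds of each list, and the 3 genes most alike for Egr1, Fos and Jun, except for a few genes that are not reported here. Members, lists and rules were chosen with earlier results of these libraries known. Alternatives were a pseudocount of 0.1, no filter or a mean FPKM of at least 5, TPM, median-ratio and quantile scaling, a replicate block, no trend, only the groups compared, each library left out, and limma-voom on recovered reads. Promoter windows are RefSeq's, of GRCm38.p6, a different build from the authors' files. Python 3.11.15, pandas 2.3.3, numpy 2.4.6 and matplotlib 3.10.9 were used.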

Additional observations from a re-analysis of the deposited data

Results flagged for a closer look

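Without Egr1 and Egr3, 1 of 8 members had a larger effect of TCA with Cu/ES and 2 a smaller one at an adjusted p under 0.05. On the log2 scale the difference between the effects with and without Cu/ES was 1.77 for Egr1 and -0.58 for Egr3. Both are given as descriptions because the contrasts they are built on were taken to have led to their choice. The difference was 0.63 for Fosb, -0.62 for Fosl1 and -0.89 for Ier2, with adjusted p-values of 0.00245, 0.00535 and 0.00721 (limma, Benjamini-Hochberg). At this adjusted p alone 17.7% of all genes tested had a larger and 19.8% a smaller effect of TCA with Cu/ES. The counts of the 8 members were near these shares. Groups of 3 libraries are too small for the search for single libraries far from the others.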

How the results depend on the processing

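The 5 AP-1 members were called higher in group B vs. A under every alternative but one, TPM scaling, where Fosl1 was 0.87. With median-ratio scaling the genes called in B vs. A were 2856 higher and 2600 lower, against 1070 and 5622, and with quantile normalization 2198 and 2353, with the like in C vs. D (2952 and 2654, 2269 and 2448, against 1189 and 5662). In C vs. B the split moved from 120 and 123 to 148 and 83 with TPM scaling. A filter of a mean FPKM of at least 5 tests fewer genes and called 4089 in B vs. A, 4280 in C vs. D and 14 in D vs. A, where median-ratio scaling called 15. Limma-voom called 780 genes in C vs. B, 104 in D vs. A and 874 in the interaction, a pseudocount of 0.1 called 703, 95 and 878, and quantile normalization 154 in C vs. B. Of the members called, those higher in B vs. A went from 5 to 4 with TPM, 7 with median-ratio and 6 with quantile scaling, those higher in C vs. D from 5 to 6 with both of the last, those lower in B vs. A became 1 with TPM and with quantile scaling, those higher in D vs. A 2 with quantile scaling, those lower in C vs. D 2 with TPM and 0 with median-ratio scaling, and those lower in the interaction 1 with quantile scaling. Leaving out 1 library gave 0 to 1, 1 to 2 and 0 to 1 for the members lower in B vs. A, higher in D vs. A and lower in the interaction. The cause of these shifts was not tested.

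Signs turned under median-ratio and quantile scaling in B vs. A for Egr1 (1.30 and 0.35), Egr2 (0.57 and 0.98) and Egr3 (0.98 and 1.20), and in C vs. D for Egr2 (0.79 and 1.17) and Egr3 (0.56 and 0.34). They turned under median-ratio scaling for Ier3 in B vs. A (0.37) and for Ier2 (0.57) and Ier3 (0.27) in C vs. D, under TPM scaling for Ier2 in B vs. A (-0.27), and under quantile scaling for Ier3 in the interaction (0.0072). With 1 library left out, uncalled differences near 0 ranged across it: in B vs. A Egr1 -0.17 to 0.14, Egr2 -0.12 to 0.022 and Ier2 -0.042 to 0.25, in C vs. B Fos -0.22 to 0.056, Fosl1 -0.0060 to 0.051, Jun -0.015 to 0.13 and Ier2 -0.12 to 0.20, in D vs. A Ier3 -0.32 to 0.037, in C vs. D Egr2 -0.053 to 0.022, and in the interaction Egr2 -0.038 to 0.11 and Ier3 -0.32 to 0.039.

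Libraries of the same replicate number had deviations from their group means that correlated with a mean r of 0.125 (-0.171 to 0.579, over 0.1 in 11 of 18 pairs), against -0.059 for other numbers. Whether libraries of the same number belong together was not tested. The replicate block left the calls at 1070 higher and 5622 lower in B vs. A, 120 and 123 in C vs. B, and changed no member's call. Depth limits Fos in group A and Egr2 most, with 187 to 391 reads per library in group A.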
